A study of Mus musculus with 48 samples.

Results

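The comparison of the nucleus with the cytosol at the last time point of a transcription block rests on 6 libraries, with 3 replicates of each fraction at 240 min. It takes in the genes with a value in each of these 6 libraries, which were 12482 of the 23862 gene identifiers found anywhere in the series. A further 8275 identifiers were listed in some of the 6 libraries and 3105 in none. The cells were E14TG2a, a line of mouse embryonic stem cells, grown in "2i + LIF" medium, and all groups carried the same treatment, 1 µM flavopiridol. The whole series holds 48 libraries of polyadenylated RNA, from the whole cell (total), the nucleus, the cytosol and the membrane fraction at 30, 60, 120 and 240 min. Per the labels, the replicates were cultures passaged independently of each other.

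Flavopiridol inhibits the kinase that lets paused RNA polymerase II move into productive elongation, so few new mRNAs are begun while it is present. Transcripts begun before it was added may still be completed and add to the nuclear pool, which was not tested. A polyadenylated transcript already in the nucleus can be exported, degraded or kept. A cytosolic one can be received from the nucleus, be degraded or move on to the membranes of the endoplasmic reticulum. Low digitonin opens the plasma membrane and releases the cytosol, a stronger detergent then frees the membrane fraction, and the remaining pellet, passed through a sucrose cushion, is the nucleus together with other insoluble material. Cycloheximide, which holds ribosomes on mRNA, was present during the harvest. RNA bound to the endoplasmic reticulum therefore belongs to neither of the fractions compared here.

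The deposited values compare a gene's level with the one that its fraction had at 0 min. Per the study's methods, libraries were scaled on genes with long half-lives. A ratio of 1 thus stands for no change relative to those genes since the drug was added. Statements below about the 0 min level are relative in this way, and not about absolute amounts. The difference between nucleus and cytosol on the log2 scale is the change in the balance between both compartments under this scaling, and not the balance itself. A transcript that is mostly nuclear can have a negative difference, and a transcript that is mostly cytosolic can have a positive one. In bulk fractions, fewer cells that hold a transcript and less of it per cell cannot be told apart. The nuclear libraries listed 17339 to 17574 genes and the cytosolic ones 15067 to 15195. The files state no read depth, and 4527 of the genes tested had values in quotients of whole numbers up to 10 in at least 1 fraction, as a few reads would give. Of 7 markers of embryonic stem cells, 6 were listed in all 6 libraries, and Esrrb was listed in 3 nuclear libraries and 1 cytosolic library. Among the markers of other cell types, 1 of 6 for endoderm, 2 of 6 for fibroblasts and 3 of 6 for trophoblast were listed in all 6 libraries. Ratios carry no level, so these counts do not say how much of such RNA was present, and its part in the results was not tested.

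At 240 min the nuclear and cytosolic ratios had moved apart past the test for 50.7% of genes. Of 12482 genes, 2315 had a higher ratio in the nucleus than in the cytosol (18.5%) and 4019 a lower one (32.2%), by limma with a Benjamini-Hochberg adjusted p under 0.05. The lower group also held the larger differences, with 957 genes past 2 on the log2 scale against 166 in the higher group. For 786 of the called genes the nuclear mean ratio was above 1 and the cytosolic one below 1, and for 721 it was the other way round. Without any test, the 3 nuclear values were all above the 3 cytosolic values for 23.6% of genes and all below them for 38.6%. The spread between replicates, on which these tests rest, appears to leave out the error of the 0 min level, by which all replicates of a fraction seem to have been divided.

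The median gene had a nuclear ratio of 0.383 and a cytosolic ratio of 0.506, and a median difference of -0.22. Differences spread widely around it, from -1.79 at the 10th percentile to 0.97 at the 90th, with a median SE of 0.20. The library medians of log2 ratio were -1.42 ± 0.10 (SD, n = 3) in the nucleus and -1.03 ± 0.03 in the cytosol. They did not overlap, and the exact permutation test gave p = 0.1 (two-sided), the smallest that 3 against 3 can give. This common shift depends on how libraries are scaled. With the median gene of each library set to the same level (centring), the median difference became 0.16, with 4055 genes higher in the nucleus (32.5%) and 2749 lower (22%), so that the share of calls that were higher went from 36.5% to 59.6%. Because of this, counts after centring are given below for each gene group whose split turned.

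**Figure D1:**
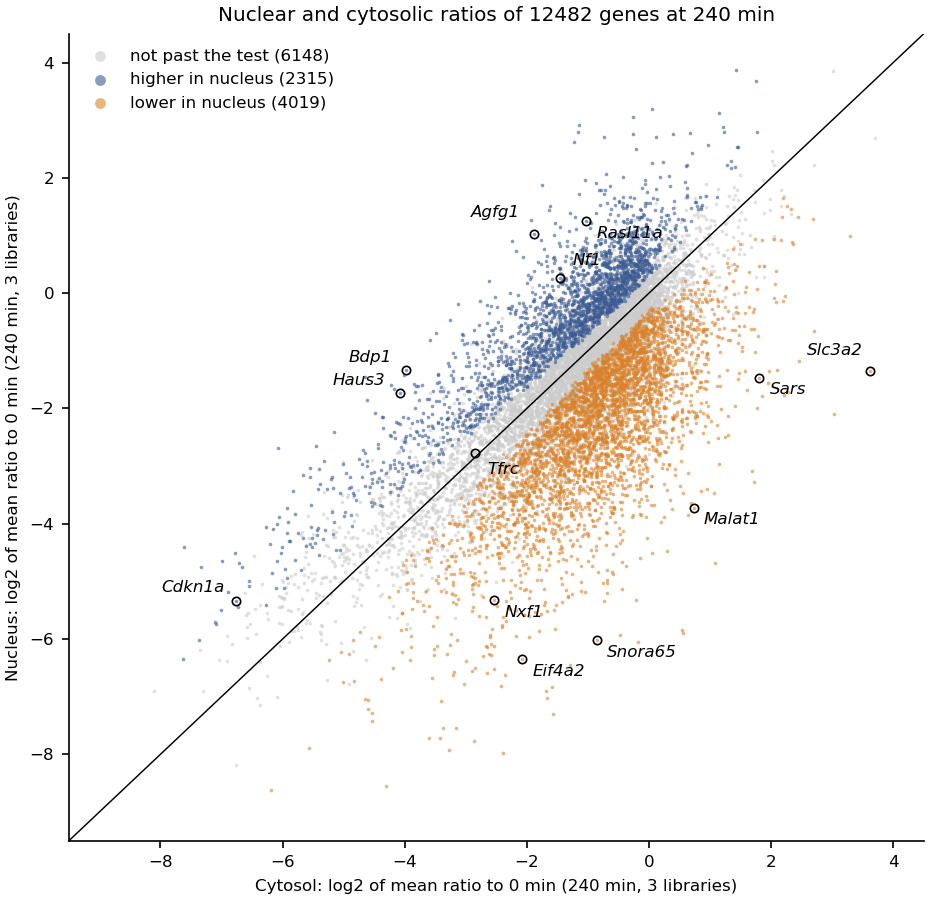
Log2 of the mean ratio to 0 min in the cytosol (horizontal axis) against the nucleus (vertical axis) at 240 min, 1 point per gene, n = 3 libraries per fraction; the line marks equal ratios. The 2315 genes with a higher ratio in the nucleus lie above the line and the 4019 with a lower one below it, where the cloud reaches farther from the line.

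Agfg1, Hnrnpc and Carf were among the genes with a much higher ratio in the nucleus. Of 3518 genes that met the rule for naming (values at each time in both fractions, a symbol of a known gene, an adjusted p under 0.05, no overlap between fractions and close replicates), the 12 most positive differed by 2.28 to 2.92 on the log2 scale. The 12 were Agfg1, Hnrnpc, Carf, Bdp1, Nim1k, Pter, Fam126b, Nufip2, Fbxo30, Haus3, Tdrd3 and Rasl11a. In 6 of the 12 the nuclear mean ratio was above 1, and in none was the cytosolic one. These genes were picked as the largest of many, and their sizes carry that choice.

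Agfg1, which encodes a protein with nucleoporin-like repeats, led these genes (chromosome 1, 82839483 to 82901182, GRCm38). Its nuclear ratios were 2.14, 2.09 and 1.92 and its cytosolic ratios 0.277, 0.266 and 0.269. The nuclear libraries were thus all above the 0 min level and the cytosolic ones all far below it. The difference was 2.92 ± 0.09 (log2, SE; limma adjusted p = 0.000267), a 7.56-fold higher ratio in the nucleus. In the whole cell its ratio was 0.799 ± 0.11 (SD, n = 3), and in the membrane fraction 0.553 ± 0.033. Rasl11a, a small GTPase of the Ras superfamily (chromosome 5, 146845071 to 146847726), had nuclear ratios of 2.89, 2.00 and 2.25 and cytosolic ratios of 0.445, 0.584 and 0.437.

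Other genes of the 12 reached a similar difference with a nuclear ratio below 1. For Bdp1, a subunit of the initiation factor TFIIIB of RNA polymerase III, the nuclear ratios were 0.469, 0.368 and 0.351 and the cytosolic ones 0.062, 0.0795 and 0.0498. Haus3, a subunit of the augmin complex of the mitotic spindle, had nuclear ratios of 0.33, 0.303 and 0.268 against cytosolic ratios of 0.0608, 0.0594 and 0.0566. Its annotated span overlaps Poln on the same strand. Transcripts of Bdp1 and Haus3 were below their 0 min level in both fractions, and much farther below it in the cytosol. Nufip2, whose product binds the fragile X protein FMRP, lay between these patterns, with nuclear ratios of 1.09, 0.911 and 0.845 and cytosolic ratios of 0.167, 0.176 and 0.182. Hnrnpc, a protein that packages nascent RNA, had a difference of 2.78, but as for Nim1k and Pter its values stood in small whole-number quotients.

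Nf1 and Tfrc are examples that the study itself follows. Nf1 encodes neurofibromin, a GTPase-activating protein that switches off Ras, and lies on chromosome 11, 79339693 to 79581612. Its nuclear ratios were 1.26, 1.26 and 1.09 and its cytosolic ratios 0.31, 0.375 and 0.412, with no overlap. The difference was 1.73 ± 0.14 (limma adjusted p = 0.000537), a 3.31-fold higher ratio in the nucleus. Its annotated span also holds Evi2, Evi2a, Evi2b, Omg and AU040972 on the opposite strand. Tfrc encodes the transferrin receptor, by which cells take up iron. Its nuclear ratios of 0.158, 0.14 and 0.139 overlapped the cytosolic ratios of 0.137, 0.147 and 0.134, and the difference of 0.06 ± 0.14 did not pass the test (limma adjusted p = 0.73). After centring, Tfrc was 0.45 higher in the nucleus (adjusted p = 0.0253). Its ratio in the membrane fraction was 0.332 ± 0.017.

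At the other end, the 12 most negative named genes differed by -5.15 to -3.49, and 5 of them stood above their 0 min level in the cytosol. These were Snora65, Slc3a2, Rab26, Malat1, Eif4a2, Hnrnpa2b1, Ppm1j, Dpp7, Adgre5, Cd37, Btbd19 and Tmem253. Their nuclear mean ratios ran from 0.0123 to 0.391, so each was below its 0 min level there. Adgre5 and Cd37 encode proteins of the cell surface, and Rab26 a GTPase of secretory vesicles. Values of Rab26, Adgre5, Cd37 and Tmem253 stood in small whole-number quotients. On the same strand, annotated spans overlap between Rab26 and Traf7, Adgre5 and Mir1668, and Eif4a2 and both Snora81 and Snord2.

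Slc3a2, the heavy chain shared by several amino acid transporters (chromosome 19, 8706882 to 8723369), had the highest cytosolic ratio of these genes. Its nuclear ratios were 0.356, 0.449 and 0.369 and its cytosolic ratios 10.7, 11 and 15. Each cytosolic library held many times the 0 min level, while each nuclear library held less than it. The difference was -4.96 ± 0.19 (limma adjusted p = 0.000267), a 31.1-fold higher ratio in the cytosol. The membrane fraction, where an mRNA of a membrane protein is translated, had a ratio of 1.3 ± 0.17, and the whole cell showed 2.10 ± 0.071.

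Transcripts of 2 RNA-binding proteins were almost gone from the nucleus and in part from the cytosol. Eif4a2, an RNA helicase of translation initiation (chromosome 16, 23107444 to 23114136), had nuclear ratios of 0.0111, 0.0126 and 0.0132 and cytosolic ratios of 0.194, 0.275 and 0.241. Hnrnpa2b1, which binds nuclear and transported RNA, had nuclear ratios of 0.0395, 0.036 and 0.0323 and cytosolic ratios of 0.631, 0.631 and 0.603. The fractions did not overlap in either case, and the differences were -4.25 and -4.12. Dpp7, a peptidase of lysosomes, kept its cytosolic level with ratios of 0.988, 1.00 and 1.09, against nuclear ratios of 0.0706, 0.0775 and 0.0866.

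**Figure D2:**
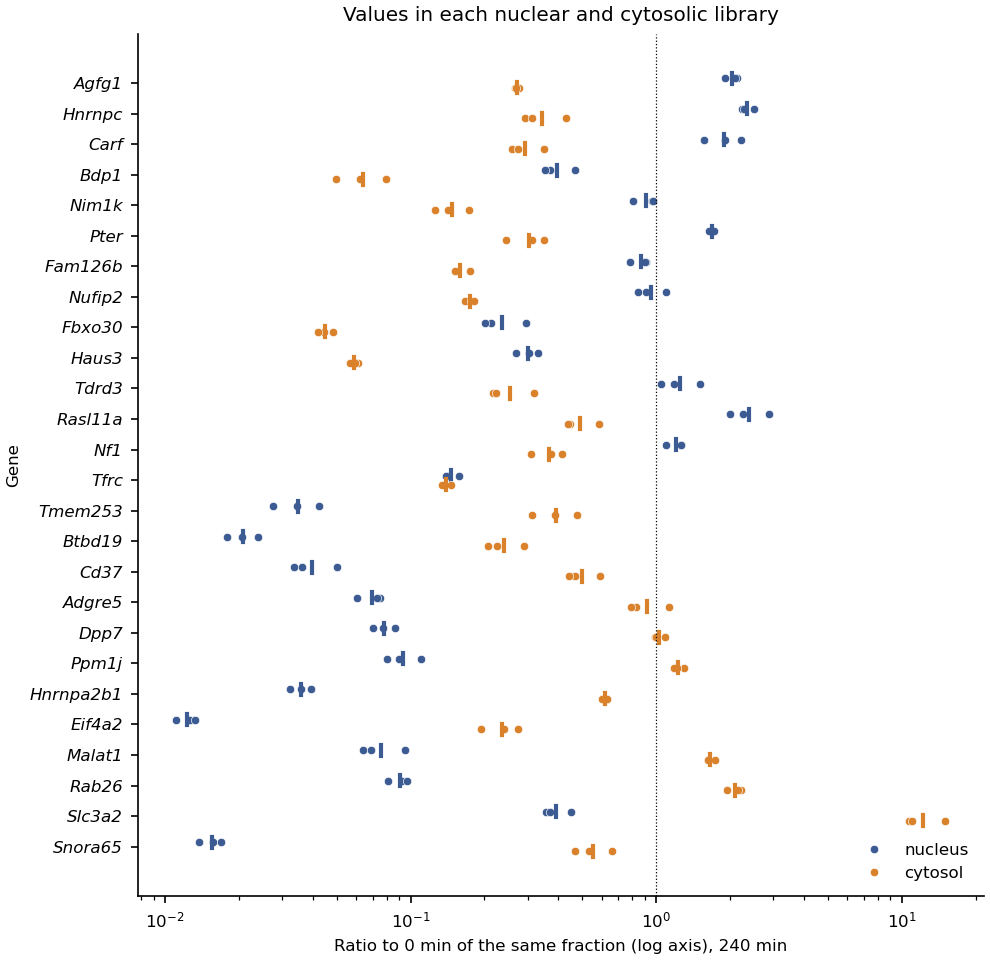
Ratio to 0 min (log axis) at 240 min in each nuclear and cytosolic library for the 12 most positive named genes (top), Nf1 and Tfrc, and the 12 most negative (bottom); points are libraries, short bars the means of 3, and the dotted line marks the 0 min level. Points of both fractions separate for each gene but Tfrc, and Slc3a2 lies between 10.7 and 15 in the cytosol.

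Long noncoding RNAs known from nuclei mostly had a lower ratio in the nucleus than in the cytosol. The list held 19 genes tested, with a median difference of -1.45 against -0.22 for all genes. Of these, 14 were lower in the nucleus (73.7%, against 32.2% of all genes), 1 was higher (5.26%, against 18.5%) and 4 did not pass the test. The median ratio of the 19 was 0.307 in the nucleus, 0.733 in the cytosol, 0.946 in the membrane fraction and 0.868 in the whole cell. Among genes listed in all 12 libraries at 240 min, the nucleus had the lowest of the 4 mean ratios for 16 of these 19, and for 47.4% of all 11725 genes. In 7 of the 19 the nuclear ratio was below 1 while that of the whole cell was above 1, which held for 6.69% of all genes.

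Malat1, an abundant transcript of nuclear speckles (chromosome 19, 5795690 to 5802672), showed this most. Its nuclear ratios were 0.0642, 0.0691 and 0.0945 and its cytosolic ratios 1.62, 1.62 and 1.74, a difference of -4.47 ± 0.17 (limma adjusted p = 0.000267). The whole-cell extract, an aliquot taken before the fractions were separated, had a ratio of 1.15 ± 0.28 and the membrane fraction one of 1.25 ± 0.25. Of the 4 fractions, then, only the nuclear mean was below 1.

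Meg3, an imprinted RNA expressed from the maternal allele, had nuclear ratios of 0.645, 0.593 and 0.548 and cytosolic ratios of 1.70, 1.60 and 1.56. Its ratio was 2.20 in the membrane fraction and 1.58 in the whole cell. Neat1, the scaffold of paraspeckles, had nuclear ratios of 0.453, 0.354 and 0.403 and cytosolic ratios of 1.50, 0.916 and 0.964, without overlap. For these 2 RNAs, too, the nucleus had the lowest of the 4 ratios and the whole cell was above 1.

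Kcnq1ot1, which silences imprinted genes in cis, was below its 0 min level in each fraction, and farthest in the nucleus. Its nuclear ratios were 0.0962, 0.0902 and 0.113, its cytosolic ratios 0.707, 0.715 and 0.779, and its whole-cell ratio 0.188. Xist, the RNA that coats the inactive X chromosome, differed by -2.58 and its antisense partner Tsix by -1.36. The library kit kept strand, but how the counting used it is not given in the sources used here, so reads of Xist and Tsix, or of Kcnq1ot1 and Kcnq1, may not be told apart. Pvt1 went the other way, with nuclear ratios of 1.06, 0.952 and 0.951 against cytosolic ratios of 0.496, 0.516 and 0.727 (limma adjusted p = 0.0117). Rian, with a difference of -0.08, and Tug1, with 0.29, were among those that did not pass the test.

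Host genes of small nucleolar RNAs were mostly lower in the nucleus as well. These genes carry small nucleolar RNAs in their introns, and their spliced transcripts are often degraded in the cytoplasm. Only 7 of the 17 host genes of the list found in the series had values in all 6 libraries and were tested. Of these 7, 6 were lower in the nucleus (85.7%, against 32.2% of all genes) and none higher (against 18.5%), with a median difference of -2.0. Zfas1 had nuclear ratios of 0.0167, 0.012 and 0.0138 and cytosolic ratios of 0.154, 0.138 and 0.184, and Epb41l4aos had nuclear ratios of 0.0783, 0.0734 and 0.0784 and cytosolic ratios of 0.566, 0.631 and 0.552. Both were far below their 0 min level in the nucleus in each library, and Epb41l4aos kept more than Zfas1 in the cytosol.

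Annotated gene types differed in their medians. Over all genes, 18.5% were higher and 32.2% lower. Of 9505 protein-coding genes, 1885 were higher (19.8%) and 3099 lower (32.6%), with a median difference of -0.20, and after centring 3329 were higher and 2071 lower. For 443 long intergenic noncoding RNAs the counts were 42 (9.48%) and 190 (42.9%), with a median of -0.76. For 46 noncoding RNAs from bidirectional promoters they were 3 (6.52%) and 22 (47.8%), with a median of -1.08. Genes annotated as small nucleolar RNAs, which guide base modification of ribosomal RNA and are not polyadenylated as mature molecules, had the lowest median, -2.42. Of these 43, 32 were lower (74.4%) and 1 higher (2.33%). Values of 38 of these 43 stood in small whole-number quotients, and reads from an intron of the host transcript cannot be told apart from the mature RNA.

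Snora65 was among these small nucleolar RNA genes. It lies inside Rpl12 (chromosome 2, 32963291 to 32963420) and had nuclear ratios of 0.0138, 0.0157 and 0.017 against cytosolic ratios of 0.468, 0.659 and 0.533. Processed pseudogenes had a positive median difference, 0.24. Of 885, 210 were higher (23.7%, against 18.5% of all genes) and 98 lower (11.1%, against 32.2%), and 559 stood in small whole-number quotients. Reads of these pseudogenes may belong to the parent genes.

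Numbered Zfp genes, most of which encode zinc finger proteins that bind DNA, were mostly higher in the nucleus where they passed the test. Of 245 tested, 91 were higher (37.1%) and 41 lower (16.7%), against 18.5% and 32.2% of all genes, with a median difference of 0.49. Their ratios were low in both compartments, with median ratios of 0.120 in the nucleus and 0.110 in the cytosol. Zfp820 had nuclear ratios of 0.72, 0.687 and 0.63 and cytosolic ratios of 0.149, 0.152 and 0.135, a difference of 2.22. Zfp626, at 2.07, and Zfp930, at 1.93, were similar. In contrast, Zfp57, which keeps imprinted loci methylated, was nearly gone from the nucleus with ratios of 0.00676, 0.00769 and 0.00822, against cytosolic ratios of 0.0368, 0.0386 and 0.0438. Of the 245 genes, 106 stood in small whole-number quotients, and without such genes 66 of 139 were higher and 31 lower. Zfp820, Zfp626, Zfp930 and Zfp57 were chosen after their values were seen.

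Aminoacyl-tRNA synthetases, which charge tRNAs with their amino acids, and proteasome subunits were also mostly higher where they passed. Of 14 cytosolic synthetase genes, 9 were higher in the nucleus (64.3%, against 18.5% of all genes) and 3 lower (21.4%, against 32.2%), with median ratios of 1.66 in the nucleus and 1.14 in the cytosol. Dars, for aspartate, had nuclear ratios of 1.71, 1.67 and 1.72 and cytosolic ratios of 0.808, 0.733 and 0.80. Sars, for serine, was the opposite, with nuclear ratios of 0.426, 0.334 and 0.327 and cytosolic ratios of 3.25, 3.83 and 3.43. The members of this family therefore did not share 1 direction.

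Of 34 proteasome genes, 17 were higher (50%, against 18.5% of all genes) and 4 lower (11.8%, against 32.2%), with a median difference of 0.34. Psmd12, of the lid of the regulatory particle, led them with nuclear ratios of 1.07, 1.03 and 0.941 and cytosolic ratios of 0.40, 0.373 and 0.357. Psma1, of the core, had nuclear ratios of 1.91, 1.78 and 1.58 and cytosolic ratios of 0.755, 0.84 and 0.721. Both held about their 0 min level or more in the nucleus.

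Regulators of the Ras pathway, to which Nf1 belongs, included 10 higher (45.5%, against 18.5% of all genes) and 4 lower (18.2%, against 32.2%) of 22. Sos1, the exchange factor that loads Ras with GTP, had nuclear ratios of 0.441, 0.435 and 0.443 and cytosolic ratios of 0.125, 0.136 and 0.129. Rasal2, a further GTPase-activating protein, had nuclear ratios of 0.864, 0.78 and 0.887 and cytosolic ratios of 0.284, 0.294 and 0.263. Activators and inhibitors of Ras were thus both among the higher genes. Without nucleus replicate 1 or cytosol replicate 2 or 3, 7 rather than 10 genes were higher. Without cytosol replicate 2 or 3, 2 rather than 4 genes were lower. The kinase Araf was lower by 1.49, with nuclear ratios of 0.348, 0.319 and 0.286 and cytosolic ratios of 0.799, 0.836 and 1.05.

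Genes for deadenylation and cytoplasmic mRNA decay included 12 higher (40%, against 18.5% of all genes) and 7 lower (23.3%, against 32.2%) of 30, with a median of 0.13. The deadenylases Cnot6l and Cnot6 were higher by 2.04 and 1.55, and the exonuclease Xrn1 by 0.52. Factors of nonsense-mediated decay, which removes mRNAs with early stop codons, were split as deposited. Of 14, 5 were higher (35.7%, against 18.5% of all genes) and 5 lower (35.7%, against 32.2%). When centred, 7 were higher and 4 lower. Without nucleus replicate 1 or 2, or cytosol replicate 2 or 3, 3 of these factors were higher as deposited. Pnrc2 was higher by 1.40 and Smg5 lower by 1.58.

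Pluripotency factors, which hold these cells in their undifferentiated state, included 8 higher (36.4%, against 18.5% of all genes) and 4 lower (18.2%, against 32.2%) of 22, with a median of 0.30. Pou5f1 was higher by 0.33, with nuclear ratios of 1.24, 1.15 and 1.11 and cytosolic ratios of 0.952, 0.927 and 0.918. Klf4 was higher by 0.87 at very low ratios, with nuclear ratios of 0.0452, 0.042 and 0.0423 and cytosolic ratios of 0.0253, 0.0218 and 0.0238. Transcripts near and far below their 0 min level were thus both among the higher genes. Nanog did not pass the test, with a difference of -0.05, and its libraries overlapped. The number of higher genes was 4 without cytosol replicate 3, and 5 without nucleus replicate 1 or cytosol replicate 2.

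Among 21 targets of p53, 6 were higher (28.6%, against 18.5% of all genes) and 2 lower (9.52%, against 32.2%). Without nucleus replicate 2 or cytosol replicate 1 or 2, 4 were higher. Leaving out nucleus replicate 1 or 3 or cytosol replicate 3 gave 5. Cdkn1a, an inhibitor of cell cycle kinases, was higher by 1.41, with nuclear ratios of 0.0313, 0.0224 and 0.0207 and cytosolic ratios of 0.00846, 0.00804 and 0.0113. Plk3, a stress-responsive kinase, was lower by 1.98. Of 14 immediate early genes 2 were higher (14.3%, against 18.5% of all genes) and none lower (against 32.2%). These counts rest on few calls (1 higher without nucleus replicate 1, 2 or 3 or cytosol replicate 3), and 10 of the 14 stood in small whole-number quotients.

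Several further groups had no direction that held under all scalings. Of all genes, 32.2% were lower and 18.5% higher as deposited, and 22% and 32.5% after centring. Cytosolic ribosomal protein genes were lower in 28 (41.2%) and higher in 11 (16.2%) of 68 as deposited. After centring, 19 were lower and 21 higher. Nuclear-encoded genes of the respiratory chain and ATP synthase had 19 lower (27.5%) and 8 higher (11.6%) of 69 as deposited. When centred, 6 were lower and 31 higher. Mitochondrial ribosomal protein genes had 19 lower (29.7%) and 11 higher (17.2%) of 64 as deposited, and 13 lower and 28 higher when centred.

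Plasma membrane and secreted proteins were lower in 13 (33.3%, against 32.2% of all genes) and higher in 1 (2.56%, against 18.5%) of 39. The single gene higher as deposited was Lamp2, a lysosomal membrane protein, at 1.3. When centred, 8 were lower and 9 higher, while over all genes 22% were lower and 32.5% higher. For chaperones of the endoplasmic reticulum the counts were 5 lower (27.8%) and 1 higher (5.56%) of 18, and 3 lower and 7 higher when centred. Without cytosol replicate 3, 3 chaperone genes were lower.

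Within such groups single members still differed strongly. Among SR proteins and their kinases, 6 of 20 were lower (30%, against 32.2% of all genes) and 4 higher (20%, against 18.5%) as deposited. When centred, 5 were lower and 9 higher. Son, which organizes nuclear speckles, was higher by 1.68 (nuclear ratios of 0.445, 0.468 and 0.43, cytosolic ratios of 0.139, 0.151 and 0.129). Srsf5, a splicing regulator, was lower by 3.55 (nuclear ratios of 0.0628, 0.0707 and 0.0438, cytosolic ratios of 0.874, 0.847 and 0.418). Factors of mRNA export and nuclear RNA decay included 9 lower (28.1%, against 32.2% of all genes) and 7 higher (21.9%, against 18.5%) of 32. When centred, 6 were lower and 16 higher. Without nucleus replicate 1 or 2, or cytosol replicate 2 or 3, 4 were higher as deposited. The main mRNA export receptor Nxf1 was lower by 2.77, with nuclear ratios of 0.0246, 0.0228 and 0.0274 and cytosolic ratios of 0.143, 0.177 and 0.196.

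Mitotic regulators were even as deposited, with 9 higher (23.1%, against 18.5% of all genes) and 9 lower (23.1%, against 32.2%) of 39. When centred, 17 were higher and 6 lower, while over all genes 32.5% were higher and 22% lower. Kif11, a kinesin that keeps spindle poles apart, was higher by 1.43. Replication licensing genes had 4 higher of 21 (19.0%, against 18.5% of all genes) and 3 lower (14.3%, against 32.2%). When centred, 9 were higher and 3 lower. Mcm5 of the replicative helicase was higher by 1.29. Cholesterol synthesis genes had 4 higher (22.2%) and 5 lower (27.8%) of 18 as deposited, and 6 higher and 3 lower when centred. Without nucleus replicate 2 or cytosol replicate 1, 3 were lower as deposited. Of the isomerases, Idi1 was higher by 1.34 and Ebp lower by 1.87. Of 27 replication-dependent histone genes, whose mature mRNAs end without a poly(A) tail, 3 were higher (11.1%) and 7 lower (25.9%). When centred, 5 were higher and 3 lower, and 24 of the 27 stood in small whole-number quotients.

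Of the 7 mRNAs encoded in mitochondrial DNA, which belong to neither compartment, 1 was higher (14.3%, against 18.5% of all genes) and none lower (against 32.2%). Their median difference was 0.50. The higher gene was mt-Co1, a subunit of cytochrome oxidase, with nuclear ratios of 1.16, 0.966 and 0.835 and cytosolic ratios of 0.40, 0.475 and 0.802 (limma adjusted p = 0.0461). Without cytosol replicate 3 the number called was 5, and without any of the other 5 libraries it was 0.

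**Figure D3:**
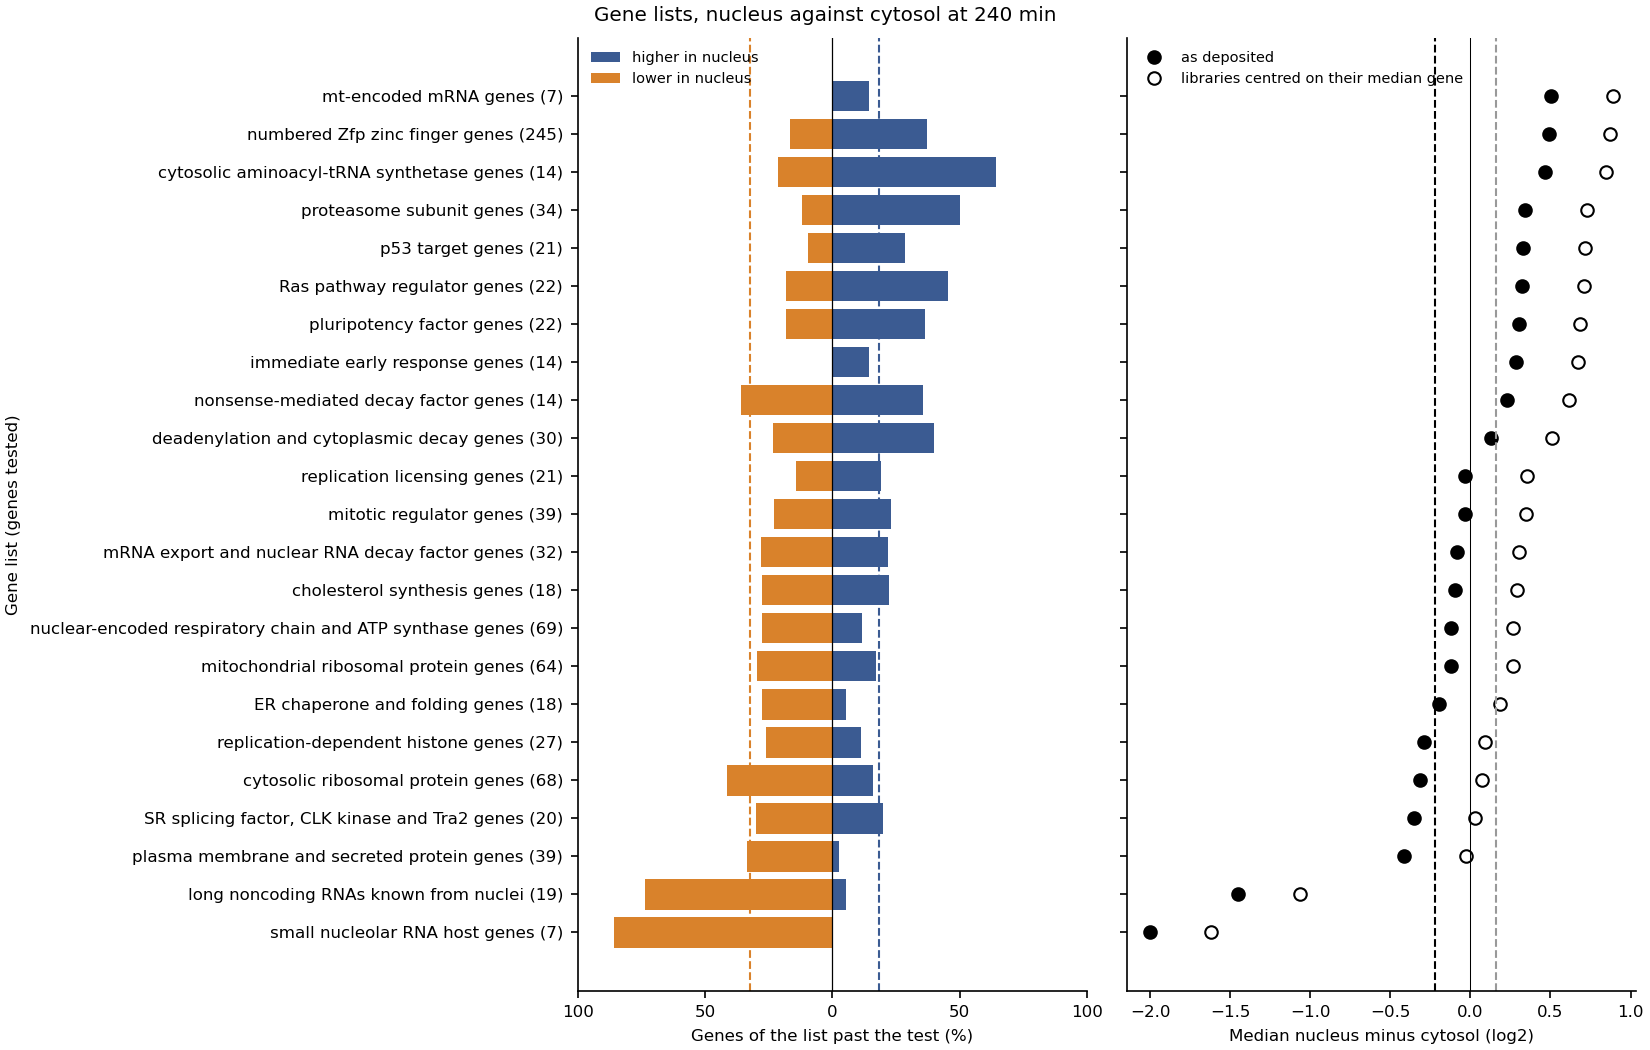
Left, the percentage of each gene list with a higher (blue, to the right) or lower (orange, to the left) ratio in the nucleus, with the number of genes tested in brackets and dashed lines at 18.5% and 32.2%, the shares over all genes. Right, the median difference (log2) of each list as deposited (filled) and after centring (open), with dashed lines at the medians of all genes, -0.22 and 0.16; the noncoding RNA lists lie farthest to the left in both.

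Within protein-coding genes the difference moved with the base composition of the transcript. Over 9505 genes, Spearman's rho between the GC content of the transcript and the difference was -0.42, and it was -0.47 over the 6705 genes without small whole-number quotients. These values are across genes, which are not independent replicates, and base composition can also act on the preparation of libraries, whose part was not tested. In the lowest of 5 equal groups by GC content, 41.4% of genes were higher in the nucleus and 11.9% lower, and in the highest group 4.16% were higher and 53.2% lower. From the lowest group to the highest, median differences ran 0.38, 0.04, -0.19, -0.50 and -0.84. The nuclear median ratio went from 0.454 in the lowest group to 0.226 in the highest, whereas the cytosolic one went from 0.394 to 0.482.

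Gene structure moved with the difference as well. The mean intron length had a rho of 0.33 over the 9171 genes with an intron, and the number of exons one of -0.04. In 5 equal groups by intron length, median differences ran from -0.84 for the shortest to 0.17 for the longest. Both features were partly separate from each other. Among genes above the median GC content the median difference was -0.82 with shorter and -0.29 with longer introns, and among those below it was -0.02 and 0.22. The 334 genes with 1 exon had a median difference of 0.14.

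**Figure D4:**
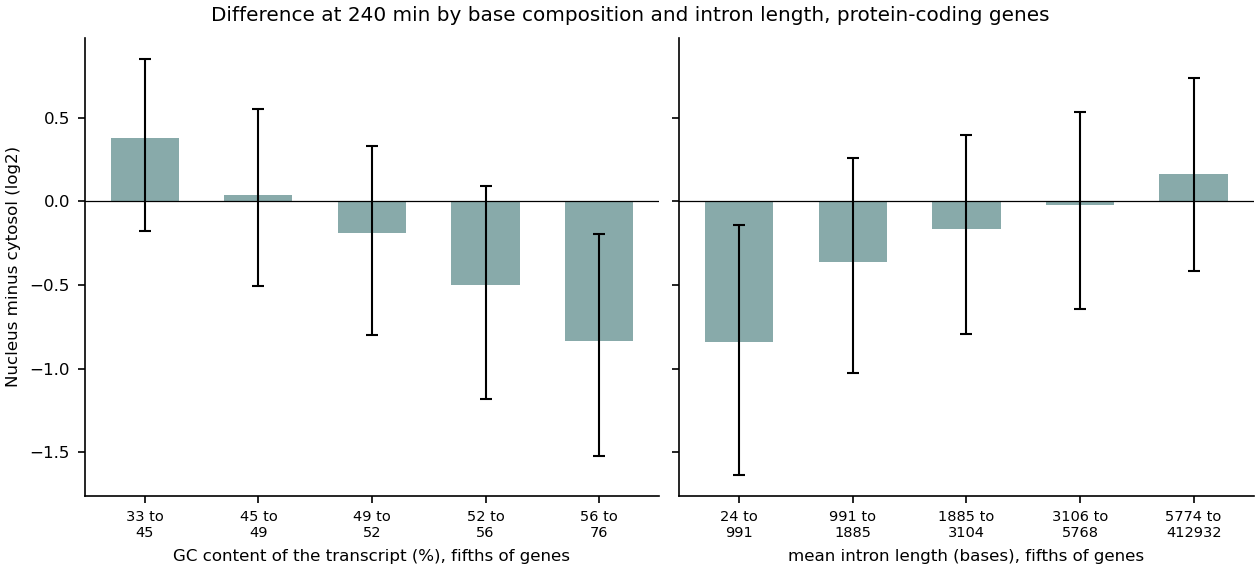
Median difference between nucleus and cytosol at 240 min (log2, bars) in 5 equal groups of protein-coding genes by GC content of the transcript (left) and by mean intron length (right); lines span the interquartile range of genes. Medians run from 0.38 to -0.84 with rising GC content and from -0.84 to 0.17 with rising intron length.

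The balance was still moving between 60 and 240 min. In this comparison the 0 min level cancels, because each fraction is set against its own earlier libraries. Of 11819 genes listed in all 12 libraries, the difference rose for 1243 (10.5%) and fell for 621 (5.25%), by limma with an adjusted p under 0.05. Of the 12 most positive named genes 10 rose further and none fell, and of the 12 most negative 10 fell further and none rose; the 240 min libraries that named these genes enter the change too, so these counts are a description. With a replicate left out from both fractions and times, the calls dropped to 0 rising and 1 falling without replicate 1, to 11 and 15 without replicate 2, and to 311 and 176 without replicate 3. At an unadjusted p under 0.05 the counts were 2547 rising and 1314 falling with all replicates, and 1436 and 1061 without replicate 1.

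Time courses took different routes to 240 min. For Nf1 the difference was -0.04 at 30 min, 0.33 at 60 min, 1.76 at 120 min and 1.73 at 240 min, with the nuclear ratio highest at 120 min (1.88 ± 0.19). Agfg1 was already at 1.39 by 30 min and reached 2.92 while its cytosolic ratio went from 0.913 ± 0.18 to 0.271 ± 0.0058. The difference thus opened by 30 min for Agfg1 and between 60 and 120 min for Nf1.

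In the other direction, Malat1 went from -0.91 at 30 min to -3.12 at 60 min and -4.47 at 240 min. Its cytosolic ratio was 1.82 ± 0.66 at 60 min and 1.66 ± 0.069 at 240 min, so the later movement lay in the nucleus, where the ratio went from 0.217 ± 0.11 to 0.076 ± 0.016. The change of -1.35 from 60 to 240 min did not pass the test (limma adjusted p = 0.0775). For Slc3a2 the cytosolic ratio went from 2.52 ± 1.3 at 30 min to 12.3 ± 2.4 at 240 min, while the nuclear ratio was 0.498 ± 0.0064 and 0.391 ± 0.051.

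Over all genes, 10.5% rose between 60 and 240 min and 5.25% fell. Most of these calls were lost with a replicate left out, and the list counts that follow are given with all replicates only. Among the gene lists, 68 of 241 Zfp genes rose and 9 fell. For deadenylation and decay genes 11 of 29 rose and 1 fell, and for Ras pathway genes 8 of 22 rose and 1 fell. Of 18 nuclear long noncoding RNAs 7 fell and 1 rose. Cdkn1a went from -0.75 at 60 min to 1.41 at 240 min. Of synthetase genes 2 of 14 rose, and of proteasome genes 4 of 34, against 10.5% of all genes.

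**Figure D5:**
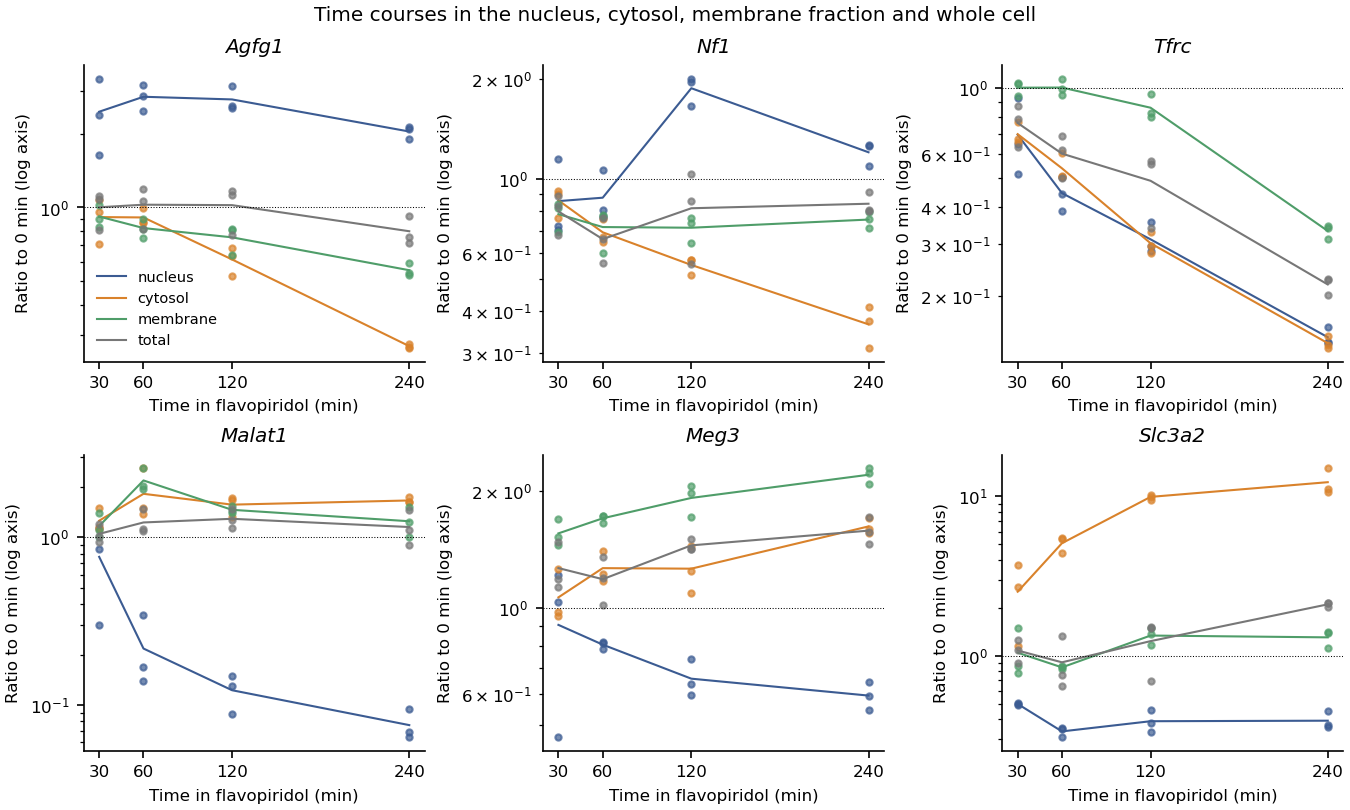
Ratio to 0 min (log axis) against time in flavopiridol for 6 genes in the nucleus, cytosol, membrane fraction and whole cell; points are libraries and lines join the means of 3. At 240 min Agfg1 and Nf1 lie above 1 in the nucleus and below 1 in the cytosol, Tfrc lies below 1 in both, and Malat1, Meg3 and Slc3a2 lie below 1 in the nucleus and above 1 in the cytosol.

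Some genes had dropped out of one fraction by 240 min. Of 13713 genes listed in all 6 nuclear and cytosolic libraries at 30 min, 80 (0.583%) were listed in the 3 nuclear and in no cytosolic library at 240 min, and 10 (0.0729%) in the 3 cytosolic and in no nuclear library. The cytosolic libraries listed fewer genes throughout, and without read depth the limit of detection is unknown. The gene with the highest nuclear ratio among the 80 was Bhlhe23, a transcription factor, with 2.44, 2.32 and 2.65. The next, Themis3, Tomm40, Rab40b, Cfap206 and Ube2d2b, had means of 0.817 to 0.681 and replicates that varied widely. Most of the 80 were low, with a median mean ratio of 0.118.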

How the data were processed

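Per the labels, the authors aligned reads of stranded polyadenylated RNA libraries with STAR 2.7.6 and quantified genes with RSEM 1.3.3 (mm10). Per the study's methods they scaled libraries on genes with long half-lives and divided the later time points by the start of the series. What they deposited are ratios, which the files call normalized read counts. Genes at 0 are not listed, and depth is not given. Titles name the last time point 240 min and the protocol text another time; the titles were used.

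Log2 ratios, without a pseudocount, were compared by limma (version 3.58.1, R 4.3.3) with a two-sided moderated test, a trended prior and no replicate block (Benjamini-Hochberg adjustment over all genes tested). Summaries were made in Python 3.11.15. Of 23862 identifiers, 23786 matched a symbol and a GRCm38 position in GENCODE M21, a later release than the study's. Quotients between replicates of a fraction were often shared by many genes (8.64% of genes for nuclear replicates 1 and 2), as when all replicates are divided by the same 0 min level; the spread between replicates then leaves out the error of that level. GC content and exons are those of the transcript with the longest coding sequence.

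Named genes were listed in all 24 nuclear and cytosolic libraries, had a symbol of a known gene, an adjusted p under 0.05, no overlap between fractions and an SD of log2 ratio of at most 0.35 in each: the 12 most positive and 12 most negative. Nf1, Tfrc, the extreme called members of each gene list, and the 6 highest genes left in 1 fraction were added. Further list members are named as examples, chosen after their values were seen. The gene lists and tests were chosen with earlier results of these data known. In simulated data with 12482 genes, 100 were changed by 1 on the log2 scale and 100 by 2. Limma recovered 36% of the former and 62% of the latter, with 15 calls among unchanged genes. In the real data 50.7% of genes were called, so the adjustment is less strict there and these recoveries do not describe this comparison. Alternatives covered library scaling, a pseudocount of 0.1, filters on listed genes, limma without trend, the replicate block, a shared spread, each library left out, and 120 min in place of 60 min.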

Additional observations from a re-analysis of the deposited data

Results flagged for a closer look

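The difference between nucleus and cytosol at 240 min differed from that at 60 min for 1243 genes that rose and 621 that fell, by an interaction contrast in limma with an adjusted p under 0.05. Among the named genes that rose, the changes were 1.28 for Agfg1, 1.74 for Carf, 2.07 for Bdp1, 2.94 for Nim1k, 0.72 for Fam126b, 1.28 for Nufip2, 1.84 for Fbxo30, 1.97 for Haus3, 1.65 for Tdrd3, 2.65 for Rasl11a and 1.39 for Nf1 on the log2 scale. Among those that fell, they were -1.34 for Snora65, -1.04 for Slc3a2, -2.53 for Rab26, -1.31 for Eif4a2, -1.57 for Hnrnpa2b1, -2.11 for Ppm1j, -1.77 for Dpp7, -3.17 for Cd37, -1.86 for Btbd19 and -1.40 for Tmem253. Each of these kept its sign when replicate 1, 2 or 3 was left out, but with 2 replicates a group most calls were lost (for Agfg1 the adjusted p then ran from 0.0345 to 0.0747). No group was large enough for a test of single outlying libraries.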

How the results depend on the processing

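With libraries centred on the median gene, 4055 genes were higher in the nucleus and 975 fell from 60 to 240 min. The difference of library medians, -0.39 as deposited, was then 0 by construction, -0.15 when scaled on cytosolic ribosomal protein genes, and -0.25 without genes in small whole-number quotients, a filter chosen after seeing the data. With 120 min in place of 60 min, 86 genes rose and 35 fell. With a library left out, 1792 to 2192 genes were higher and 3406 to 3668 lower, and the difference of medians ran from -0.43 to -0.33. With a replicate left out, 0 to 311 genes rose and 1 to 176 fell, so those counts rest on all 3 replicates. The other alternatives kept these counts within 1.5 times, and the replicate block gave 2068 higher, 3758 lower, 1049 rising and 519 falling; the samples share only a number (correlations of the deviations of 0.059, 0.0107 and 0.0384 for replicates 1, 2 and 3), and nuclear replicate 2 correlated best with cytosolic replicate 3. Directions of the named genes did not turn under any alternative, and between 1 and 4 of the 67 lost their call under some of them. Depth is unknown, so no counting error limits can be given for low genes.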
